A study of Sus scrofa with 6 samples.

Results

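The circular RNAs (circRNAs) described here span less than 1000 bp of the genome from start to end. They numbered 558 of the 11375 circRNAs in the deposited table and were chosen by end minus start alone, with no measured level in the choice. A circRNA is a closed loop formed when a downstream splice donor is joined back to an upstream splice acceptor, and the read across that joint is called a back-splice read. Most circRNAs join several exons across long introns. A loop of short span can hold little more than a single exon, or a few small exons with the short introns between them. Circular RNAs lack free ends, are slow to decay and are known to be plentiful in brain, where many come from genes of the synapse.

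The libraries came from brain of 3 wild boars and from cerebrum of 3 Rongchang pigs, a Chinese domestic breed, with the prefrontal cortex named in the series title. Each of the 6 libraries was labelled as 1 female animal, aged 2 years. The domestic pig libraries were labelled as re-analysed ones of an earlier deposit, so breed, labelled tissue and source of the library cannot be told apart in any comparison below. No treatment was labelled in either group. Ribosomal RNA was depleted before stranded libraries were made, a route that keeps molecules without a poly(A) tail.

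The circRNA table gave TPM, a level per length scaled to the library. Recovered back-splice reads numbered 38088, 59393 and 33673 in the wild boar libraries, in the order of their numbers, against 71238, 48864 and 73131 in the domestic pig ones. A count of 0 in a library allows up to 3 reads, which is 0.00505% to 0.00891% of the back-splice reads of a wild boar library and 0.00410% to 0.00614% of those of a domestic pig library, for counting error only. Neuronal markers (SNAP25, SYT1, RBFOX3 and STMN2) summed to 710 to 1827 TPM in wild boar, against 1257 to 2268 TPM in domestic pig, so the defining markers of neurons were present in both groups. Red blood cell markers (HBB, AHSP and ALAS2) summed to 521 to 758 TPM in wild boar, against 123 to 311 TPM in domestic pig. Their part in the breed comparisons below was not tested.

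The short-span class held both loops that kept their whole span and loops that did not. For 220 of the 558 circRNAs (39.4%), the length by which the authors divided the reads equalled the genomic span, so no base of the span was left out, as in a loop of 1 exon or of a retained intron. The other 338 had a shorter length. In 6 of those, the length was exactly 2 nt under the span. In the other 332, between 75 and 831 nt of the span were left out, with a median of 341 nt. For 180 of the 338 a longer length within the span is also possible. The smallest was taken, so their lengths are lower bounds and the bases left out are upper bounds. Loops that kept the whole span made up 117 of the 201 circRNAs of span under 500 bp (58.2%), 103 of the 357 from 500 bp upwards (28.9%), and 45 of the 603 circRNAs in the next class, from 1000 to under 2000 bp (7.46%).

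**Figure D1:**
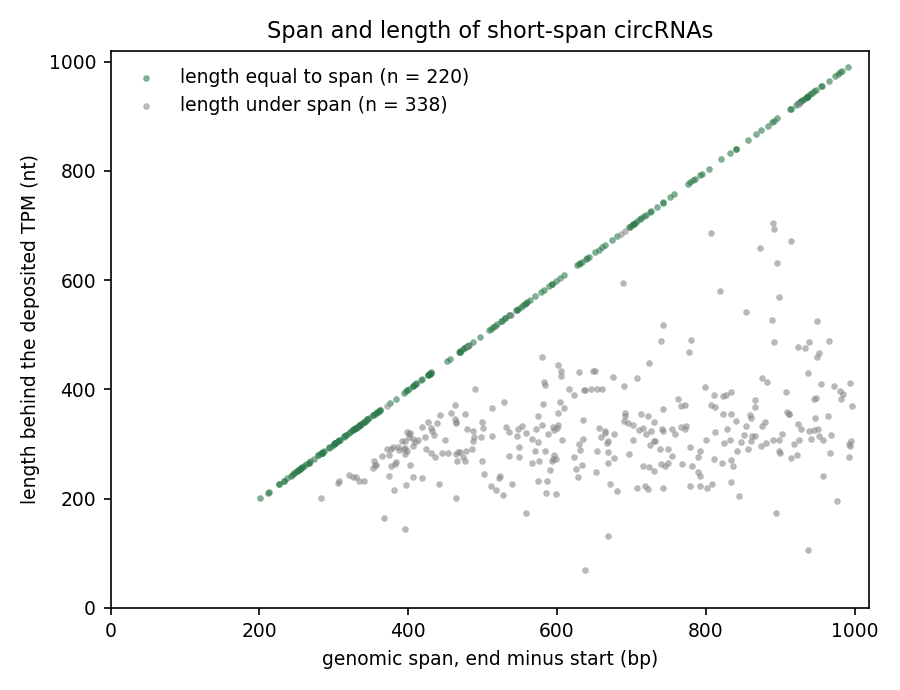
Length behind the deposited TPM (nt, vertical axis) against genomic span (bp, horizontal axis) for each of the 558 short-span circRNAs. The 220 that keep their whole span lie on the diagonal, while the 338 others lie below it, with a median length of 312.5 nt. Where several lengths are possible for those others, the smallest is shown.

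The shortest of all had spans of 201, 211 and 213 bp, and no circRNA of the table had a shorter span. The first came from PPP3CA, the catalytic subunit of the phosphatase calcineurin (ssc_circ_10062, chromosome 8, 119583916 to 119584116, plus strand). It had 0, 4 and 1 reads in wild boar, against 0, 4 and 2 reads in domestic pig. The next came from an unnamed locus, LOC100736666 (ssc_circ_11173, chromosome 9, 53005823 to 53006033, minus strand), with 2, 7 and 0 reads in wild boar, against 0 in every domestic pig library. The third came from AUTS2, a gene of neuronal development (ssc_circ_7150, chromosome 3, 13854403 to 13854615, plus strand), with 0, 4 and 0 reads in wild boar, against 1, 2 and 2 in domestic pig. All 3 were near the lower limit of what these libraries can count, and their groups overlapped. Coordinates here are those of the deposited table, counted from 1; the genome build was not given in the sources used here.

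At the limit of 1000 bp nothing set the circRNAs on either side apart by eye. Just inside lay circRNAs of UNC13B (span 996 bp), SYMPK (995 bp) and CHD8 (994 bp), with 5, 4 and 6 reads over the 6 libraries. Just outside lay those of EIF2B5 (1001 bp), TRAPPC10 (1001 bp) and HERC2 (1002 bp), with 9, 11 and 3 reads. On both sides of the limit these reads are the smallest possible.

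Short-span circRNAs stood higher than the rest of the table in TPM, and barely so in reads. Their median TPM was 0.0864, 0.136 and 0.0991 in wild boar 1 to 3, against 0.138, 0.127 and 0.154 in domestic pig 1 to 3. All other circRNAs had medians of 0.0537, 0.0541 and 0.0554 TPM in the same wild boar libraries and 0.0867, 0.0808 and 0.110 TPM in the domestic pig libraries. The short-span class was the higher one in each of the 6 libraries. By span class, the median of mean TPM was 0.154 under 500 bp and 0.115 from 500 to under 1000 bp. It was 0.115 from 1000 to under 2000 bp, 0.107 from 2000 to under 5000 bp and 0.0535 from 50000 bp upwards. From 500 bp the level was thus close to that of the next classes, and the higher level is not particular to spans under 1000 bp. On log2(TPM + 0.045) the difference of medians averaged 0.51 ± 0.18 (SD, n = 6 libraries; exact two-sided paired permutation p = 0.031, the smallest that 6 libraries allow; 0.0521 after Benjamini-Hochberg adjustment over 5 such tests, which misses 0.05).

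The same circRNAs had a median of 1.5, 3 and 1 reads in wild boar 1 to 3, against 3, 2 and 3 reads in domestic pig 1 to 3. The others had medians of 1, 2 and 1 reads in wild boar, against 3, 2 and 3 in domestic pig. Only wild boar 1 and 2 differed between the classes, and the mean difference was 0.25 reads (exact paired permutation p = 0.5, n = 6; adjusted 0.625). Mean reads, a comparison that was not planned beforehand, follow the few abundant loops. They were 4.4, 7.73 and 3.62 in wild boar, against 7.82, 5.22 and 7.19 in domestic pig. For the others they were 3.29, 5.09 and 2.93 in wild boar, against 6.18, 4.25 and 6.39 in domestic pig, so the short-span class was higher in each of the 6 libraries (exact paired permutation p = 0.031, n = 6; adjusted 0.0521). That depended on the span limit: the mean difference was 0.71 reads at a limit of 500 bp and 0.54 at 2000 bp (exact paired permutation p = 0.0625 each, n = 6). TPM divides reads by length, and the median length was 332.5 nt in the short-span class and 554 nt in the rest. In both classes, reads and lengths were the smallest whole ones where several fitted, unless the span itself was whole and under 5000 bp. Longer spans leave more room for several lengths, so reads of the others may be lower bounds more often. That was not tested. Set only against others of length under 1000 nt, the median log2 difference was 0.28 (exact paired permutation p = 0.031, n = 6). That limit does not match the lengths of the classes, so the part of length in the difference was not tested. These tests ask whether libraries give the same direction, and all 6 share 1 list of circRNAs.

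**Figure D2:**
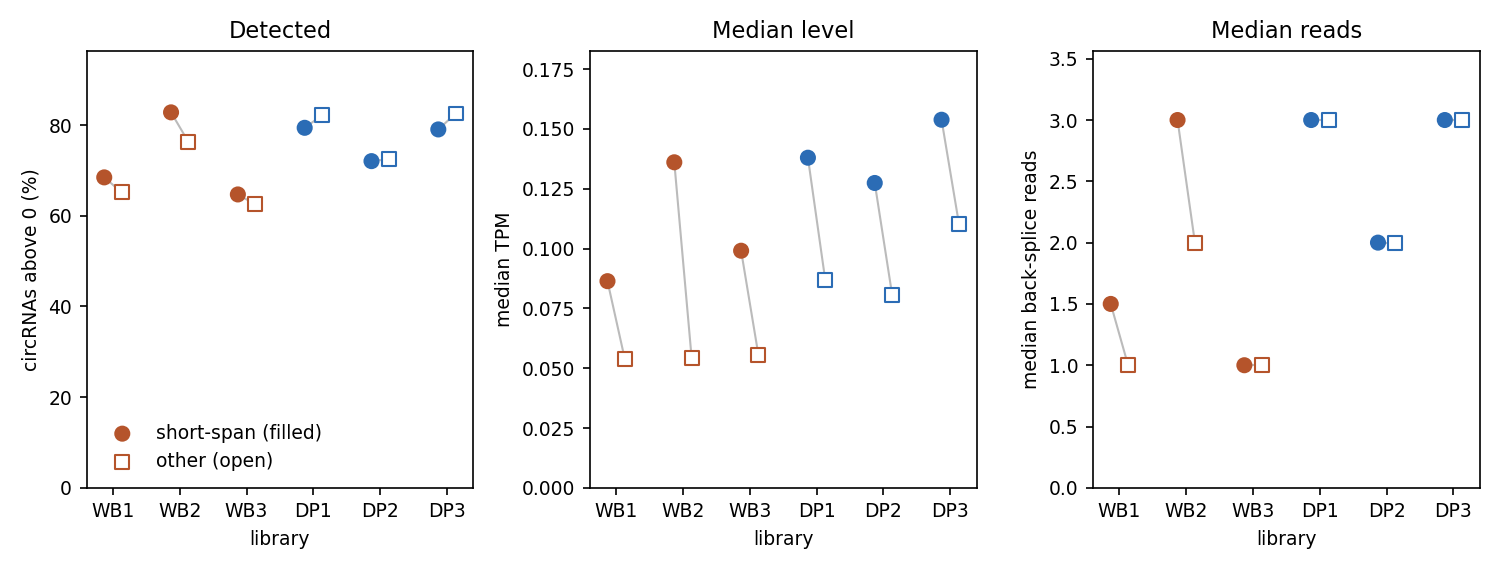
Percent of circRNAs above 0, median TPM and median back-splice reads (vertical axes) in each library (horizontal axis; WB, wild boar; DP, domestic pig), filled circles for short-span and open squares for other circRNAs. The median TPM is higher for short-span circRNAs in all 6 libraries, while the median reads differ only in WB1 and WB2.

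Relative to their host genes, short-span circRNAs also stood higher. Hosts at 1 TPM or more were used. The host genes had median levels of 7.52, 5.27 and 10.1 TPM in wild boar, against 8.40, 15.1 and 12.1 TPM in domestic pig. Hosts of other circRNAs had 10.2, 6.66 and 13.6 TPM in wild boar, against 12.0, 20.7 and 18.5 TPM in domestic pig. The log2 ratio of circRNA to host was higher for the short-span class by 0.84, 1.05 and 0.80 in wild boar and by 0.87, 0.94 and 0.75 in domestic pig, so the direction held in each of the 6 libraries (mean 0.87 ± 0.11, SD; exact paired permutation p = 0.031, n = 6; adjusted 0.0521). With hosts at 5 TPM or more the difference was 0.59. The ratio takes circRNA TPM, which divides reads by length, and the short-span loops are the shorter ones. It was not set against circRNAs of like length, so the part of length was not tested.

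A few loops carried much of the signal. The 10 of highest mean TPM held 29.4% of the summed TPM of the class, and the 50 highest held 55.3%. A mean of at least 1 TPM was reached by 37 short-span circRNAs (6.63%) and by 377 others (3.49%). Short-span circRNAs made up 4.91% of the table and took 10 of its 100 highest places, by TPM as by reads. Of the 1000 highest places they took 79 by TPM and 55 by reads. The highest of them ranked 7 in the table by mean TPM.

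That highest one came from SLC25A3, the phosphate carrier of the mitochondrial inner membrane (ssc_circ_9232, chromosome 5, 85285642 to 85286475, minus strand; 355 nt of an 834 bp span). It was at 5.26, 6.13 and 3.27 TPM in wild boar, against 19.9, 12.4 and 7.64 TPM in domestic pig. Every wild boar library was below every domestic pig library, although the domestic pig libraries themselves differed by over 2-fold. A longer SLC25A3 circRNA that shares its start had 26 reads over the 6 libraries, against 886 for the short one.

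The second, from the small-conductance calcium-activated potassium channel gene KCNN2, kept its whole span of 419 bp (ssc_circ_2717, chromosome 2, 118773810 to 118774228, plus strand). It was at 4.87, 4.67 and 6.92 TPM in wild boar, against 7.17, 9.39 and 12.8 TPM in domestic pig, again without overlap. This was the only circRNA of KCNN2 in the table, and in every library its TPM exceeded that of the host gene, which was 3.25, 2.33 and 5.13 in wild boar, against 3.96, 6.09 and 6.16 in domestic pig. The circRNA and gene tables are separate ones, so this sets levels of 2 deposited tables side by side.

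CEP57, a centrosome protein gene, followed with a loop of 302 nt (ssc_circ_7840) at 8.57, 4.24 and 3.43 TPM in wild boar, against 10.6, 7.57 and 8.67 TPM in domestic pig. Wild boar 1 lay within the domestic pig range and the other 2 wild boars below it. Its host gene was at 8.52, 4.27 and 7.74 TPM in wild boar, against 10.3, 13 and 14.6 TPM in domestic pig. RALGAPA1, a subunit of the GTPase-activating complex for Ral, gave a loop of 319 nt (ssc_circ_2126) at 7.18, 5.95 and 7.08 TPM in wild boar, against 8.08, 6.98 and 6.28 TPM in domestic pig, with the groups mixed. RALGAPA1 had 19 circRNAs in all, and 4 longer ones shared the end of this loop; the most read of them had 23 reads against 584.

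PTGES3, the HSP90 co-chaperone p23, gave a loop of 283 nt (ssc_circ_8928) at 6.15, 4.41 and 4.85 TPM in wild boar, against 6.44, 6.54 and 4.58 TPM in domestic pig. TMEM132D, a transmembrane protein gene, gave an 892 bp loop with its whole span kept (ssc_circ_5373), at 3.15, 4.50 and 4.31 TPM in wild boar, against 4.87, 5.03 and 8.64 TPM in domestic pig. The groups overlapped for PTGES3 and did not for TMEM132D. ROBO2, an axon guidance receptor gene, gave a whole-span loop of 327 bp (ssc_circ_4296) at 3.35, 7.12 and 4.94 TPM in wild boar, against 3.56, 5.13 and 4.11 TPM in domestic pig. Here the highest value and the lowest were both in wild boar.

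TTLL7, a tubulin polyglutamylase gene, gave a loop of 313 nt (ssc_circ_461) at 2.46, 3.01 and 4.19 TPM in wild boar, against 4.71, 4.99 and 5.50 TPM in domestic pig. SMAD5, a transducer of bone morphogenetic protein signals, gave a whole-span loop of 571 bp (ssc_circ_2774) at 2.53, 2.46 and 2.30 TPM in wild boar, against 3.63, 3.65 and 7.43 TPM in domestic pig. TRIM33, a ubiquitin ligase of the nucleus, gave a loop of 397 nt (ssc_circ_8734) at 1.57, 1.51 and 2.07 TPM in wild boar, against 4.59, 5.61 and 2.73 TPM in domestic pig. For TTLL7, SMAD5 and TRIM33 every wild boar library lay below every domestic pig library. Of the 10, SLC25A3, KCNN2, TMEM132D, TTLL7, SMAD5 and TRIM33 had groups that did not overlap, all with wild boar below. Of all circRNAs tested, 18.2% had that pattern. Most of those have far fewer reads than these loops, so that share is not matched in abundance. Lengths of the SLC25A3, CEP57, RALGAPA1, PTGES3 and TRIM33 loops, and the reads that go with them, are the smallest whole solutions, since a multiple also solves.

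**Figure D3:**
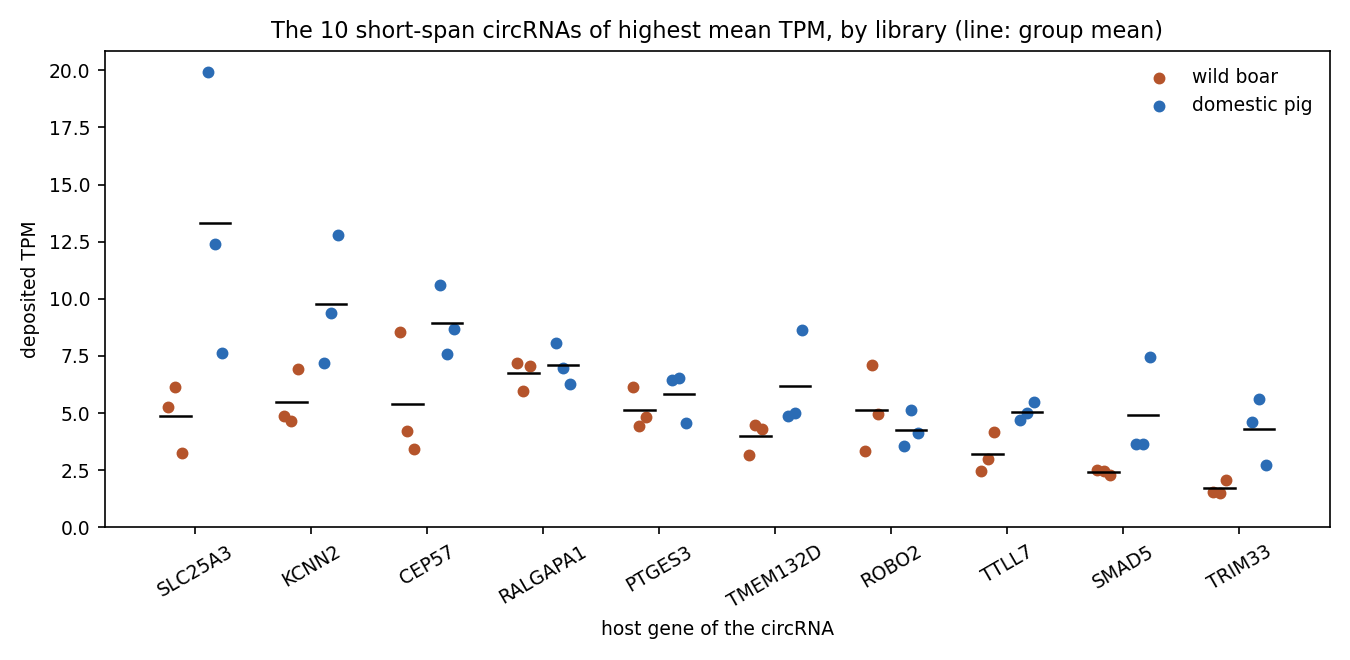
Deposited TPM (vertical axis) of the 10 short-span circRNAs of highest mean TPM (horizontal axis, by host gene) in each library, wild boar left and domestic pig right, with a line at each group's mean. SLC25A3 has the highest single value, 19.9 TPM in domestic pig 1, and RALGAPA1, PTGES3, ROBO2 and CEP57 have overlapping groups.

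Detection was as wide as in the rest of the table. In all 6 libraries were 202 of the 558 (36.2%), against 34.9% of the others and 35% of the whole table, while 32 (5.73%) were in only 1 library, against 4.90% of the others. Per library, 382, 462 and 361 short-span circRNAs were above 0 in wild boar, against 443, 402 and 441 in domestic pig (permutation test over libraries, exact p = 0.5 with 3 a group; adjusted 0.5 over 6 such tests). With every library thinned to 33673 reads in 1 random draw, the numbers were 374, 410 and 361 in wild boar, against 369, 363 and 352 in domestic pig. The mean was then 20.3 higher in wild boar, where it had been 27 lower before thinning (permutation test over libraries, exact p = 0.3 with 3 a group). The draw was made from recovered reads, some of them lower bounds, and no other draw was made.

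The breeds parted in how the class compared with the rest. In wild boar 1 to 3, 68.5%, 82.8% and 64.7% of short-span circRNAs were detected, against 65.2%, 76.3% and 62.5% of the others. In domestic pig 1 to 3, 79.4%, 72.0% and 79.0% were detected, against 82.1%, 72.5% and 82.5%. The short-span class thus led by 3.28, 6.52 and 2.20 percentage points in wild boar, and trailed in domestic pig, where the differences were -2.76, -0.42 and -3.51 points. The difference averaged 4.0 ± 2.25 points in wild boar, against -2.23 ± 1.61 in domestic pig (SD, n = 3 each; permutation test, exact p = 0.1, the smallest that 3 against 3 allow; adjusted 0.3). After thinning it was 4.18, 8.19 and 2.20 points in wild boar, against -1.41, 0.22 and -5.11 points in domestic pig, so wild boar again stood above in each library, but domestic pig 2 was no longer below 0.

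Against circRNAs of the next span class, from 1000 to under 2000 bp, whose median length of 343 nt is close to that of the short-span class, the difference in detection was 4.11, 5.02 and 2.84 points in wild boar, against -1.21, -0.76 and -0.74 points in domestic pig. Across span classes, mean detection was 72.6% in wild boar, against 76.8% in domestic pig under 500 bp, and 66.6% in wild boar, against 78.3% in domestic pig at 50000 bp and over. After thinning these means were 69.7% in wild boar, against 63.5% in domestic pig, under 500 bp, and 61.8% in wild boar, against 65.0% in domestic pig, at 50000 bp and over. Of summed TPM, the wild boar mean was 0.765 times the domestic pig mean under 500 bp and 0.725 times from 500 to under 1000 bp. It was 0.729 times from 1000 to under 2000 bp and 0.721 times from 2000 to under 5000 bp, so the ratio from 500 bp was close to that of the next classes. Longer classes had 0.649 times from 5000 to under 20000 bp and 0.660 times from 50000 bp upwards. These classes are a description, without a test between them.

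**Figure D4:**
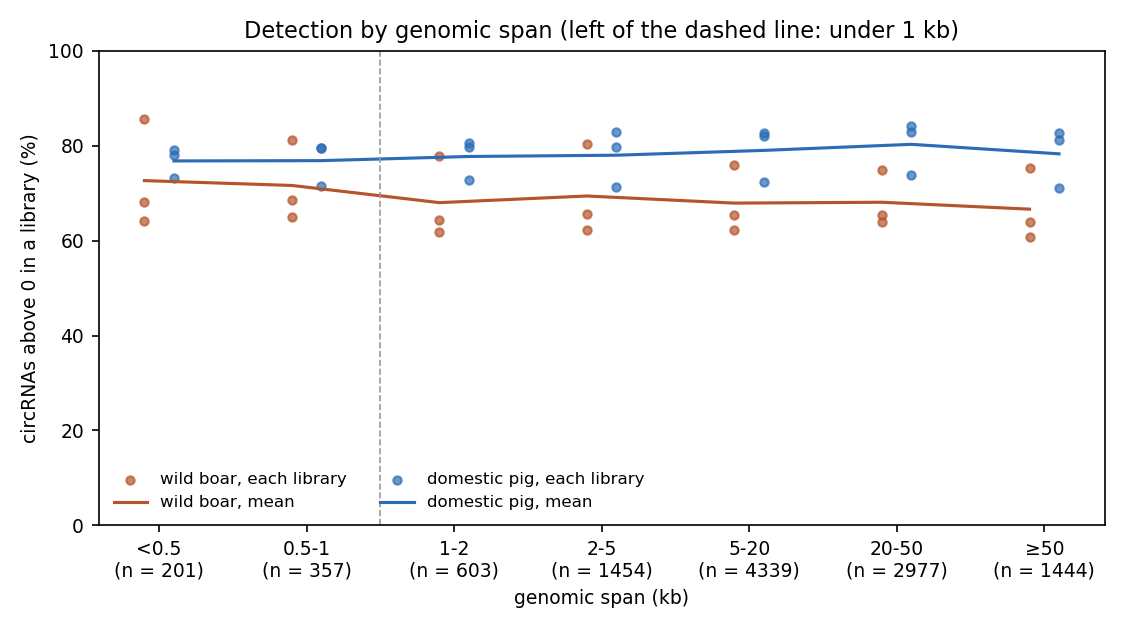
Percent of circRNAs above 0 (vertical axis) by genomic span (kb, horizontal axis) in each library, with lines for the group means; short-span classes are left of the dashed line. In these values, which are not thinned, the gap between wild boar and domestic pig is narrower under 1 kb than at longer spans. After thinning that order does not hold. Under 500 bp the means are then 69.7% in wild boar and 63.5% in domestic pig, against 64.9% and 66.0% from 1000 to under 2000 bp.

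The kinds of loop were also set side by side, with no test between them. Of the 220 whole-span circRNAs, 71.8%, 82.3% and 70.0% were detected in wild boar, against 80.9%, 79.5% and 86.8% in domestic pig. Of the 338 others of the class, 66.3%, 83.1% and 61.2% were detected in wild boar, against 78.4%, 67.2% and 74.0% in domestic pig. The whole-span share was the higher one in each library other than wild boar 2. Summed TPM of the whole-span loops was 58.8, 68.2 and 64.6 in wild boar, against 71.2, 80.2 and 96.8 in domestic pig. That of the other loops was 103, 109 and 91.4 in wild boar, against 149, 140 and 131 in domestic pig. In both kinds each wild boar sum was below each domestic pig sum.

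Short-span circRNAs had fewer neighbours than other circRNAs of the table. A start or an end was shared with another circRNA of the same strand by 207 of the 558 (37.1%), against 71.2% of the others. Their host held a median of 2 circRNAs, themselves included, against 5 for the others. Of the 550 with a single host by position, 197 (35.8%) were the only circRNA of that gene, against 11.2% of the others. They lay inside a longer circRNA in 227 cases (40.7%), and 0 held another within them, which a short span itself makes unlikely. Where no other circRNA overlapped, the nearest on the same strand was a median of 148115 bp away for 329 short-span circRNAs and 88808 bp away for 2230 others. These are counts over rows of 1 table and carry no test.

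Short loops that shared an end with longer ones could be set against them directly. Of the 207, 93 (44.9%) had more reads than any such partner and 139 (67.1%) had more TPM. TPM divides reads by length, and the partners were not matched in length, so the count by TPM is not free of length. Among those described above for their high TPM, a choice that itself favours more reads, TTLL7 had 338 reads against 195 in its most read partner, and SMAD5 had 551 against 58.

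Hosts were spread widely. The 550 came from 518 genes, of which 488 gave 1 short-span circRNA, 28 gave 2 and only ASH1L and GRM5 gave 3. By chromosome, the short-span share of circRNAs ran from 2.27% on chromosome 16 to 7.63% on chromosome 2. GRM5, a metabotropic glutamate receptor gene, had no other circRNA in the table: all of its loops kept their whole span, at 250, 868 and 940 bp. The 868 bp loop (ssc_circ_7819, chromosome 9, 22420149 to 22421016, minus strand) was at 0.0860, 0.231 and 0.141 TPM in wild boar, against 0.804, 0.133 and 1.68 TPM in domestic pig, where domestic pig 2 fell within the wild boar range. The 250 bp loop (ssc_circ_7818) had 3, 2 and 7 reads in wild boar, against 6, 1 and 3 in domestic pig. The 940 bp loop (ssc_circ_10925) had 5, 2 and 1 reads in wild boar, against 0, 0 and 5 in domestic pig.

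ASH1L, a histone methyltransferase gene, had 21 circRNAs, and its 3 short ones were at or under 7 reads in every library. LTN1, the ubiquitin ligase of stalled ribosomes, gave 2 of its 10 circRNAs to the class. One (ssc_circ_4322) had 0 reads in every wild boar library and 5, 2 and 2 reads in domestic pig. The other (ssc_circ_10684) had 3, 1 and 0 reads in wild boar, against 0, 0 and 1 in domestic pig. Reads of these LTN1 loops are the smallest possible.

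Synaptic hosts were represented on both sides of the synapse. Of 173 circRNAs from 20 presynaptic genes, 9 (5.20%) were short-span, among them loops of CADPS2, ERC2, NRXN3, PCLO, RIMS2, SV2B and UNC13B. The whole table had 4.91%. The SV2B loop was the highest (ssc_circ_2201, 821 bp, whole span), from a gene for a synaptic vesicle glycoprotein, at 1.94, 2.39 and 2.82 TPM in wild boar, against 1.79, 0.564 and 1.32 TPM in domestic pig. Its wild boar values were all above the domestic pig ones, but the test was missed (log2 fold change 1.06, SE 0.39, limma adjusted p = 0.214). Its host gene was at 45.5, 25.4 and 66.4 TPM in wild boar, against 38.8, 87.6 and 52.4 TPM in domestic pig.

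Of 84 circRNAs from 17 postsynaptic genes, 8 (9.52%) were short-span, from DLGAP1, DLGAP3, GRIN2A, GRIN2B and GRM5. The GRIN2B loop, from an NMDA receptor subunit gene (ssc_circ_9083, 429 bp, whole span), had 5, 10 and 2 reads in wild boar, against 14, 1 and 16 in domestic pig. Domestic pig 2 had the fewest reads of the 6 libraries, and the groups overlapped.

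Chromatin regulators gave 8 short-span loops of 238 (3.36%) and ubiquitin ligases 5 of 169 (2.96%). The MYCBP2 loop, from a large neuronal ubiquitin ligase gene (ssc_circ_3082, 315 nt), had 2, 0 and 5 reads in wild boar, against 16, 10 and 10 in domestic pig, without overlap. The BIRC6 loop, from an inhibitor of apoptosis (ssc_circ_7586, 424 nt), had 6, 5 and 2 reads in wild boar, against 4, 0 and 1 in domestic pig. The ARID1A loop, from a gene for a chromatin remodelling subunit (ssc_circ_240, 331 nt), had 0, 0 and 3 reads in wild boar, against 1, 0 and 5 in domestic pig.

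Genes known in other mammals for their circRNAs gave 6 of 196 (3.06%), from FBXW7, KLHL24, PTK2, RIMS2, SMARCA5 and ZNF609. ZNF609, a zinc finger gene, has a known circRNA in human and mouse myoblasts. The pig loop kept its whole span of 874 bp (ssc_circ_1120, chromosome 1, 107552365 to 107553238, minus strand) and was at 1.2, 1.11 and 1.29 TPM in wild boar, against 1.55, 1.32 and 1.78 TPM in domestic pig. The groups lay close together and did not overlap (log2 fold change -0.35, SE 0.32, limma adjusted p = 0.623). Its host gene was at 2.61, 2.06 and 3.73 TPM in wild boar, against 2.25, 5.54 and 4.44 TPM in domestic pig. Over the 5 lists, 0 short-span loops passed the limma threshold described below, of 9 presynaptic, 8 postsynaptic, 6 chromatin, 5 ubiquitin ligase and 6 described ones tested, where 0.134% of all circRNAs tested did. Median log2 fold changes were -0.29, -0.02, -0.57, -0.59 and -0.44, beside -0.45 over all tested. FBXW7, RIMS2 and SMARCA5 stand in more than 1 list. The PTK2 loop, from the focal adhesion kinase gene (ssc_circ_8332, 219 nt as the smallest possible length), had 1, 2 and 2 reads in wild boar, against 2, 4 and 4 in domestic pig.

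The summed level of the class was lower in each wild boar library. Summed TPM of the class was 162, 177 and 156 in wild boar, against 220, 220 and 228 in domestic pig, or 165 ± 11 and 223 ± 4.15 (SD, n = 3 each; permutation test, exact p = 0.1, the smallest possible; adjusted 0.3). All circRNAs together summed to 1994 to 2121 TPM in wild boar, against 2880 to 3367 TPM in domestic pig, so the whole table was lower there too. As a share of the circRNA TPM sum, the class took 8.11%, 8.73% and 7.35% in wild boar, against 7.66%, 7.60% and 6.76% in domestic pig, which overlapped (permutation test over libraries, exact p = 0.3 with 3 a group; adjusted 0.36). Of back-splice reads it took 6.45%, 7.26% and 6.0% in wild boar, against 6.12%, 5.96% and 5.48% in domestic pig (permutation test over libraries, exact p = 0.2 with 3 a group; adjusted 0.36). In bulk tissue, fewer cells of a type and less RNA per cell cannot be told apart. Over host genes of the class with a level (436), the median log2 difference between breeds was -0.60, beside -0.41 over 11752 protein-coding genes. The median log2 level of the class over that of the rest was 0.60 ± 0.24 in wild boar, against 0.43 ± 0.06 in domestic pig (permutation test over libraries, exact p = 0.3 with 3 a group; adjusted 0.36).

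Single loops were tested with limma across all 9709 circRNAs above 0 in at least 3 libraries, 472 of them short-span. By that test 0 of the 472 passed an adjusted p of 0.05, against 13 (0.134%) of all 9709. At an unadjusted p under 0.05, 60 of the 472 were lower in wild boar, where 1246 (12.8%) of all tested were. Another 16 were higher in wild boar, where 162 (1.67%) of all tested were. The median log2 fold change was -0.40 for the 472 and -0.45 for all tested, and 63.3% and 74.3% were below 0. Wild boar was below domestic pig in every library for 62 of the 472 (13.1%), against 18.2% of all tested. It was above for 22 (4.66%), against 2.46%. With libraries rescaled by median ratios, the median of all tested circRNAs was -0.10 and that of the 472 was 0.03. At an unadjusted p under 0.05, 20 of the 472 (4.24%) were then lower in wild boar, where 497 (5.12%) of all tested were. Another 42 (8.90%) were higher, where 384 (3.96%) of all tested were. For the short-span circRNAs the side with more of these turned with the scaling, and over all tested it stayed with the lower ones.

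The lowest p among the lower ones belonged to ROCK1, a kinase gene of the actin cytoskeleton (ssc_circ_376, chromosome 6, 106217223 to 106217661, minus strand, 339 nt). It was at 0.881, 1.14 and 1.17 TPM in wild boar, against 3.89, 2.90 and 2.71 TPM in domestic pig (log2 fold change -1.53, SE 0.31, limma adjusted p = 0.0537). The groups did not overlap, and its host gene was at 5.33, 4.13 and 7.23 TPM in wild boar, against 9.02, 15.7 and 11.1 TPM in domestic pig, likewise without overlap. SLC25A3, with the values above, followed at a log2 fold change of -1.38 (SE 0.32, limma adjusted p = 0.101). Its host gene, at 183, 99.5 and 234 TPM in wild boar, against 168, 229 and 237 TPM in domestic pig, overlapped between the groups. C7H6orf106 (ssc_circ_1997, 329 bp, whole span) had 0, 1 and 0 reads in wild boar, against 4, 3 and 7 in domestic pig (limma adjusted p = 0.123).

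Among the higher ones, INVS, a gene of the primary cilium, had the lowest p. Its loop (ssc_circ_10475, chromosome 1, 242018656 to 242018942, plus strand, 287 bp, whole span) had 8, 4 and 3 reads in wild boar, against 0, 0 and 1 in domestic pig (limma adjusted p = 0.125). The MTMR6 loop, from a phosphoinositide phosphatase gene (ssc_circ_2870, chromosome 11, 3208399 to 3208876, minus strand, 287 nt), was at 1.21, 1.5 and 0.532 TPM in wild boar, against 0.338, 0.302 and 0.0822 TPM in domestic pig (log2 fold change 2.02, SE 0.53, limma adjusted p = 0.126). Its host gene was at 20.1, 11.8 and 29.2 TPM in wild boar, against 18.3, 28.3 and 30.5 TPM in domestic pig, so the loop was higher in each wild boar while the gene overlapped. UHRF2 (ssc_circ_1678, 232 nt as the smallest possible length), a gene of chromatin and ubiquitin, had 2, 4 and 3 reads in wild boar, against 1, 0 and 0 in domestic pig (limma adjusted p = 0.144). None of these 6 passed, and with so few reads the fitted folds of C7H6orf106, INVS and UHRF2 depend on the pseudocount and are not given.

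**Figure D5:**
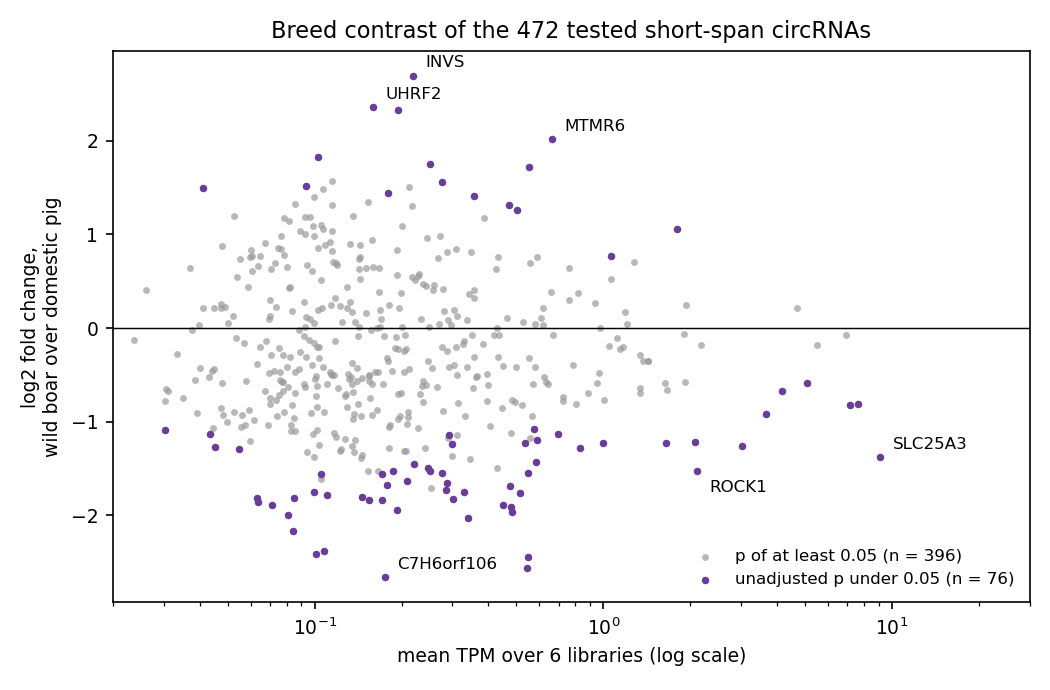
Log2 fold change of wild boar over domestic pig (vertical axis) against mean TPM over the 6 libraries (log scale, horizontal axis) for the 472 short-span circRNAs tested. The 76 at an unadjusted p under 0.05 are coloured, 60 of them below 0, and those of lowest p in each direction are named.

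Restricted to circRNAs above 0 in all 6 libraries, an alternative with fewer tests and no zeros, 12 of 202 short-span circRNAs passed (5.94%), against 154 (3.87%) of 3976, and 10 of the 12 were lower in wild boar. Of the 154, 145 (3.65% of the 3976) were lower and 9 (0.226%) higher, so most calls were lower whatever the span. These were named after their values were seen. SLC25A3 (limma adjusted p = 0.00160), ROCK1 (0.00736), TRIM33 (0.0214) and KCNN2 (0.0458) were among the lower ones. The other 6 lower ones came from ZMYM5, CCDC18, LATS1, ERO1B, PLEKHM3 and LOC106509952. CCDC18 (ssc_circ_8817, 468 bp, whole span) had 4, 4 and 2 reads in wild boar, against 11, 17 and 14 in domestic pig. Its host gene was at 4.64, 3.25 and 5.59 TPM in wild boar, against 14.5, 19.3 and 15.8 TPM in domestic pig, also without overlap. The loop of LATS1, a kinase of the Hippo pathway (ssc_circ_726, 290 nt), had 14, 25 and 10 reads in wild boar, against 47, 40 and 22 in domestic pig.

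The 2 higher ones were MTMR6 (limma adjusted p = 0.0179) and QSER1 (0.0428), a gene of DNA methylation control. The QSER1 loop (ssc_circ_2387, chromosome 2, 28003476 to 28004151, minus strand, smallest possible length 275 nt) was read 12, 16 and 5 times in wild boar, against 7, 2 and 1 in domestic pig, or 1.09, 0.897 and 0.555 TPM against 0.493, 0.210 and 0.0857 TPM. Its host gene was at 3.99, 2.88 and 5.73 TPM in wild boar, against 4.77, 13.4 and 7.41 TPM in domestic pig. With libraries rescaled by median ratios over all 9709 tested, 0 short-span circRNAs passed, as without rescaling over the same 9709. The log2 fold change was then -0.78 for SLC25A3 (limma adjusted p = 0.556), -0.94 for ROCK1 (limma adjusted p = 0.323) and 2.52 for MTMR6 (limma adjusted p = 0.231). For LATS1 it was -0.63 and for KCNN2 -0.21. Rescaling was not run on the circRNAs above 0 in all 6 libraries. These adjusted p therefore differ from those of the calls above in filter as well as in scaling.

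Loops found in 1 breed only were few and thinly read. In wild boar only were 31 of the 558 (5.56%), against 3.11% of the table, and in domestic pig only 36 (6.45%), against 8.84%. Only 1 was in all 3 wild boars and 0 domestic pigs, against 0.299% of the table. It came from MAGI2, a synaptic scaffold gene (ssc_circ_11176, chromosome 9, 101931308 to 101931946, plus strand, 639 bp, whole span), with 2, 3 and 2 reads. Found in all 3 libraries of domestic pig and in 0 of wild boar were 8 (1.43%), against 1.98% of the table, led by LTN1 and by MDN1, a ribosome assembly ATPase gene, with 1, 3 and 5 reads in domestic pig (ssc_circ_937). PIAS2, a SUMO ligase gene (ssc_circ_1067), had 3, 1 and 4 reads there and C10H9orf3 (ssc_circ_3325) 1, 1 and 5. At these depths a loop listed at 0 may still be present.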

How the data were processed

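CircRNA and protein-coding gene levels were deposited by the authors as TPM, 1 column per library, with 0 further columns of per-sample values. STAR 2.6.0c and BWA 0.7.17 appear in the submitters' processing notes, with no roles. A circRNA caller, genome build or annotation is not given in the sources used here. Every circRNA TPM was a whole number of reads, times 1 factor per library, over a whole length. The factors were set from 214 short-span circRNAs whose length equals their span, and all 11375 circRNAs came out whole (relative tolerance 1e-05). The smallest whole length giving at least 3 reads in 1 library was taken, or the span itself where whole and under 5000 bp. For 376 short-span circRNAs no other length was possible; otherwise reads and lengths are lower bounds, except for 2 where the span was taken over a shorter length. Hosts are RefSeq genes of Sscrofa11.1 around each circRNA, by position without strand: 99.1% of the short-span class lay in a gene, 55.7% once positions were moved by 1000000 bases, and several genes fitted 3 of them.

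Limma 3.58.1 (R 4.3.3) with a mean-variance trend was fitted to log2(TPM + 0.045), wild boar over domestic pig, with two-sided p adjusted by Benjamini-Hochberg at 0.05. Fold changes are on that scale and understate changes of low values. Values per library went into exact permutation tests, two-sided (SciPy 1.17.1). Tests were checked on simulated data. Alternatives were the pseudocount, filter, scaling, trend, replicate block, span limit, thinning and each library left out. Members and lists were chosen with earlier results of these data known. Named circRNAs were, by a written rule, the 10 highest, the 3 of lowest p per direction (none passed), those at the span limit, the 3 shortest, those of the 3 hosts with most, 2 per host list and 5 found in 1 breed; any other is said to be named after its values were seen. A result that the rule names is not reported here. P-values measure the spread between these 6 libraries.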

Additional observations from a re-analysis of the deposited data

Results flagged for a closer look

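The percent detected of short-span minus other circRNAs was above 0 in each wild boar library (mean 4.0 points) and below 0 in each domestic pig library (mean -2.23 points). The difference between breeds was tested only by exact permutation over 3 against 3 libraries (6.23 points, p = 0.1, the smallest possible). It was 6.96 points after thinning and 5.05 points against other circRNAs of length under 1000 nt (exact permutation p = 0.1 each). After thinning, however, domestic pig 2 was at 0.22 points and no longer below 0. With any 1 library left out the difference between breeds was 4.97 to 7.14 points (exact permutation p = 0.2 each). This comparison was chosen after the data were seen.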

How the results depend on the processing

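Thinning to the smallest library, in 1 random draw, reversed the mean difference in short-span circRNAs detected, to 20.3 more in wild boar (exact permutation p = 0.3). The mean difference in percent detected between short-span and other circRNAs was 0.89 points over the 6 libraries and -0.24 without wild boar replicate 2. The cause was not tested. The number of short-span circRNAs called was 0 in the fit described, 1 with a pseudocount of 0.5, 12 with circRNAs above 0 in all 6 libraries, which leaves fewer tests, 1 with the span limit at 2000, and 0 to 2 with 1 library left out. Without domestic pig replicate 2 the GRM5 loop of 868 bp passed (limma adjusted p = 0.0414), and without domestic pig replicate 3 those of TRIM33 and SLC25A3 did. It was 0 with a pseudocount of 0.01, no filter, either rescaling, no trend and the span limit at 500. Nothing in the labels pairs the animals, and deviations of same-numbered libraries correlated at -0.00079 to 0.0225. With the replicate block 1 was called, SLC25A3 (adjusted p = 0.0199). With 3 pairs the smallest p of a blocked test on library values is 0.25, so no such test could pass.

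Ranges over single libraries left out were -64.0 to -53.3 for summed TPM, 0.39 to 1.08 and 0.37 to 1.00 points for the shares of TPM and of reads, -57.2 to -6.67 for circRNAs detected, 0.04 to 0.27 for the difference in median log2 level between breeds, 0.44 to 0.55 for median TPM, 0.10 to 0.30 for median reads, 1.04 to 1.43 for mean reads, -0.24 to 1.77 points for percent detected and 0.84 to 0.90 for the ratio to the host. With a pseudocount of 0.5 the difference in median TPM was 0.12 on the log2 scale. Low reads limit every single loop, at a median of 12 over the 6 libraries.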
